A study of Homo sapiens with 3 samples.

Results

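The genes described here are the cyclins, cyclin-dependent kinases (CDKs) and CDK inhibitors that act in G1, the phase of the cell cycle before DNA replication. The 10 members were taken by their symbols, CCND1, CCND2, CCND3, CCNE1, CCNE2, CDK2, CDK4, CDK6, CDKN1B and CDKN2C. All 10 were found among the 31113 symbols of the 3 deposited count matrices. Of these, 7 reached 10 UMI counts per 1000000 summed UMIs (CPM) in at least 1 library, as did 10574 genes in all, and each of the 7 did so in all 3 libraries. The other 3, CCNE2, CDK4 and CDKN2C, stayed below 10 CPM in every library.

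D-type cyclins bind CDK4 or CDK6, and the active pair phosphorylates the retinoblastoma protein RB, which holds back the E2F transcription factors. E2F factors then raise CCNE1 and CCNE2, whose products activate CDK2 and carry the cell into DNA replication. CDKN1B (p27) binds and blocks cyclin E with CDK2, and CDKN2C (p18) binds CDK4 and CDK6. Pluripotent stem cells are known for a short G1 phase with high CDK2 activity, and this phase lengthens as neural progenitors form.

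The libraries came from H9, an established human embryonic stem cell line kept in mTeSR medium and taken towards neural progenitor cells with the STEMdiff SMADi Neural Induction Kit, which blocks SMAD signalling. Cells were captured in droplets by inDrop with the TruDrop protocol, which tags RNA with the barcode of its cell and with a unique molecular identifier (UMI) for counting molecules. The titles give 1 library to day 0, 1 to day 2 and 1 to day 6 of the induction, with the letters A, B and A, whose meaning they do not give. Day 0 cells are labelled as embryonic stem cells, and cells of both later days as differentiated stem cells or neural progenitors.

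The marker genes went against these labels, so each library is named by its label throughout and no order in time is read from the values. POU5F1, the pluripotency factor OCT4, was at 2.22 CPM under the day 0 label, 1229 CPM under the day 2 label and 268 CPM under the day 6 label. PAX6, a neural progenitor transcription factor, was at 176, 6.64 and 27.9 CPM in the same order. The 10 pluripotency markers summed to 186, 3224 and 1322 CPM and the 12 neural progenitor markers to 1189, 104 and 655 CPM. TDGF1 was at 0 UMIs in the library labelled day 0, which allows up to 0.106 CPM. The 9 neuron markers summed to 212, 72.4 and 242 CPM, the 7 neural crest markers found to 40.6, 74.95 and 55.6 CPM, and the 10 mesendoderm markers to 15.2, 3.78 and 2.96 CPM. These sums moved with the libraries, and their part in the values below was not tested.

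Kept cells numbered 2290, 2419 and 4180, with 28341741, 20626135 and 41268018 UMIs and medians of 8770, 3814 and 4429 UMIs per cell. At these depths 3 UMIs stand for 0.106, 0.145 and 0.0727 CPM. The median mitochondrial share of UMIs was 12.1%, 5.26% and 8.27%. Between 38 and 82 kept barcodes were shared by a pair of libraries, and leaving them out kept every 2-fold call of the 7 measured members. Genes of other lists were not recomputed without them. With 1 library per label there is no check against replicates and no test between labels. All intervals are 95% and cover counting error only.

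Between the libraries labelled day 0 and day 6, 3 of the 7 measured members lay at least 2-fold apart. CCND1 was 3.55-fold lower under the day 6 label (interval 3.24 to 3.89), CCNE1 was 3.16-fold higher (2.79 to 3.58) and CDK6 was 2.40-fold higher (2.24 to 2.58). Over all 10574 genes, 16.8% were 2-fold apart in this comparison, 10.8% higher and 6.06% lower. Between the libraries labelled day 0 and day 2, 2 of the 7 were 2-fold apart, with CCND1 lower and CCNE1 higher in that labelled day 2. The background was 20.2% there, of which 10.1% were higher and 10% lower. None of the 7 was 2-fold apart between the libraries labelled day 2 and day 6, where 14.6% of all genes were, 8.39% higher and 6.25% lower in that labelled day 6. The 3 comparisons share libraries and are not independent of each other. In each of them 4 members had a ratio above 1 and 3 a ratio below 1.

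**Figure D1:**
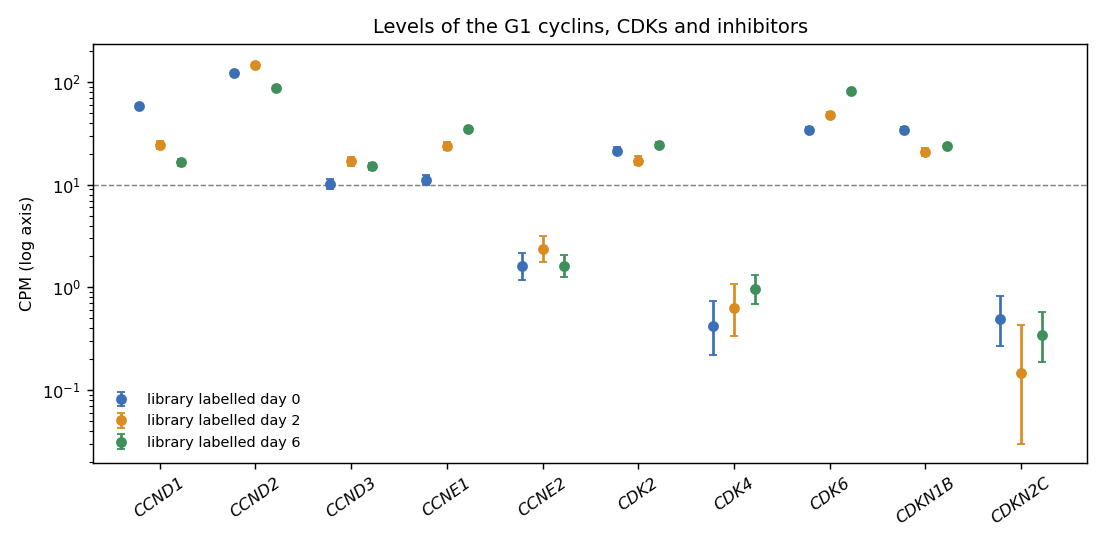
Level of each member in CPM (log axis) in the 3 libraries, with points for the level from summed UMIs, bars for exact Poisson 95% intervals and a dashed line at 10 CPM. CCND1 is at 58.6 CPM under the day 0 label and 16.5 CPM under the day 6 label, CCNE1 at 11.0 and 34.7 CPM, and CCNE2, CDK4 and CDKN2C lie below the line in all 3.

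As groups, the members kept a similar total while its make-up differed. All 10 summed to 294, 302 and 288 CPM under the labels day 0, day 2 and day 6. The median log2 ratio of the 7 measured members was 0.28 for labelled day 2 over day 0, against 0.01 over all 10574 genes. It was 0.17 for labelled day 6 over day 2 and 0.19 for labelled day 6 over day 0, against 0.12 over all genes in both.

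**Figure D2:**
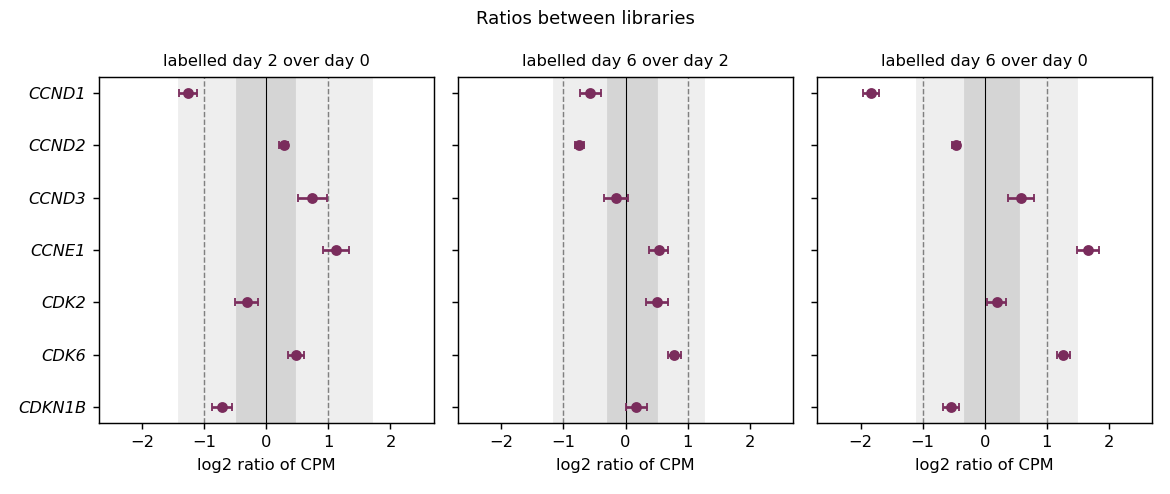
Log2 ratio of CPM of the 7 measured members between libraries, with 95% intervals for counting error, dashed lines at 2-fold, dark shading for the middle 50% and light shading for the middle 90% of 10574 genes. CCND1 lies beyond the light shading on the low side only in labelled day 6 over day 0, at a log2 ratio of -1.83, where CCNE1 at 1.66 lies beyond it on the high side.

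Among the D-type cyclins, the partners of CDK4 and CDK6, CCND1 differed most in both comparisons with the library labelled day 0. Cyclin D1 is the member best known as a sensor of growth factor signals. CCND1 (chromosome 11, 69641087 to 69654474, plus strand, GRCh38 with GENCODE 29 here and below) held 58.6 CPM (55.8 to 61.5) under the day 0 label, 24.5 CPM (22.4 to 26.7) under the day 2 label and 16.5 CPM (15.3 to 17.8) under the day 6 label. The library labelled day 0 was high and the other pair low, and no intervals overlapped. Its ratio was 0.418 (0.378 to 0.462) for labelled day 2 over day 0 and 0.674 (0.5998 to 0.758) for day 6 over day 2. Of all measured genes, 6.50% had a smaller ratio in the first of these, 13.8% in the second and 1.66% in labelled day 6 over day 0. Among cells under 5% mitochondrial UMIs the ratios were 0.487, 0.793 and 0.386 in this order. The 3′ end of CCND1 lies under LTO1, a gene on the opposite strand listed as ORAOV1 in the files at 8.89, 13.2 and 15.2 CPM. The strand setting of the counting is not given, so reads from the overlap cannot be told apart.

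CCND2, which encodes cyclin D2, followed another order (chromosome 12, 4273772 to 4305350, plus strand). It was at 122 CPM (118 to 126) under the day 0 label, 148 CPM (143 to 153) under the day 2 label and 88.3 CPM (85.5 to 91.2) under the day 6 label. The library labelled day 2 was thus the highest and that labelled day 6 the lowest, by ratios of 1.22 (1.16 to 1.28) for labelled day 2 over day 0 and 0.597 (0.569 to 0.626) for day 6 over day 2. Neither passed 2-fold. With no mitochondrial limit these ratios were 1.05 and 0.674. All of CCND2 lies within AC008012.1, an annotated gene on the same strand that was not matched by symbol in the files.

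CCND3, which encodes cyclin D3, was lowest in the library labelled day 0 (chromosome 6, 41934933 to 42050357, minus strand). Its level was 10.1 CPM (8.99 to 11.4) under the day 0 label, 16.9 CPM (15.2 to 18.8) under the day 2 label and 15.1 CPM (14.0 to 16.4) under the day 6 label. The libraries labelled day 2 and day 6 did not differ beyond counting error, with a ratio of 0.895 (0.784 to 1.02). Against the library labelled day 0, CCND3 was 1.67-fold higher (1.43 to 1.96) in that labelled day 2 and 1.496-fold higher (1.30 to 1.73) in that labelled day 6. Among cells under 5% mitochondrial UMIs alone these ratios were 1.17 and 1.06.

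The sum of the D-type cyclins was nearly the same in the libraries labelled day 0 and day 2, although their make-up was not. The 3 genes summed to 190.5 and 189 CPM, a ratio of 0.995 (0.954 to 1.04). CCND1 gave 30.8% (29.5 to 32.0) of these UMIs in the library labelled day 0 but 12.9% (11.9 to 14.0) in that labelled day 2. CCND2 gave 63.9% and 78.1%, and CCND3 5.32% and 8.93%. In the library labelled day 6 the sum was lower, at 120 CPM, or 0.630 times (0.606 to 0.655) that of day 0. There the shares were 13.8% for CCND1, 73.6% for CCND2 and 12.6% for CCND3. These shares are of UMIs with no correction for transcript length, so they compare libraries and not genes.

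**Figure D3:**
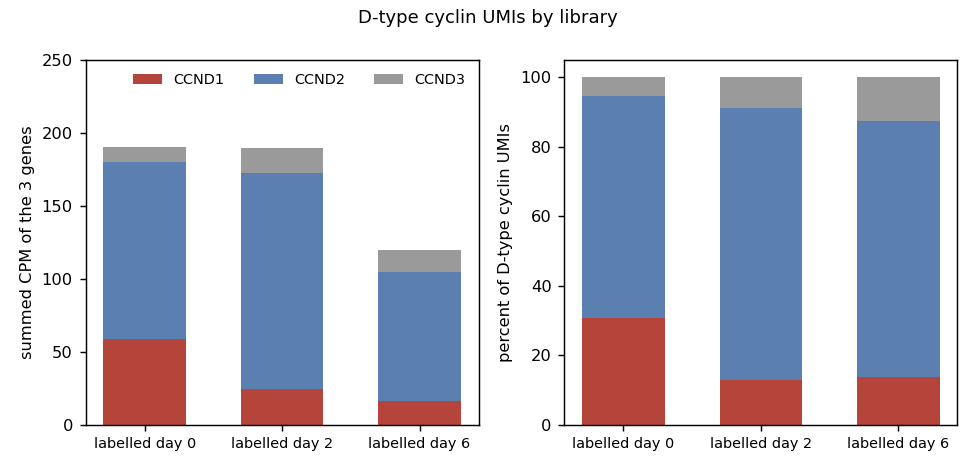
Summed CPM of the 3 D-type cyclins (left) and the percent of their UMIs from each gene (right), as stacked bars for each library. The bars for labelled day 0 and day 2 reach 190.5 and 189 CPM, and CCND1 takes 30.8% of the first and 12.9% of the second.

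Shares of cells with a UMI of each D-type cyclin depended on depth. Because depth differed, every kept cell was thinned to 1000 UMIs. CCND1 was then found in 4.85% (4.004 to 5.81), 1.90% and 1.87% of cells under the labels day 0, day 2 and day 6, and without thinning in 38.7%, 15.05% and 13.1%. The intervals of the thinned shares of labelled day 2 and day 6 overlap. CCND2 was found in 11.97%, 15.05% and 9.23% of thinned cells, and without thinning in 57.8%, 48.2% and 41.4%, where the library labelled day 0 was the highest, unlike in CPM. CCND3 was found in 0.742%, 1.94% and 1.41% of thinned cells and in 10.5%, 10.8% and 11.96% without thinning. At 3000 UMIs CCND3 was in 3.31%, 4.95% and 5.28% of cells, so no order between labelled day 2 and day 6 is read from its shares. As a background, 11 genes of tissues not in the culture had a median share of 0%, 0% and 0.0239% after thinning. The highest of them was the muscle actin ACTA1, at 1.57%, 0.744% and 1.32%, and the next highest gene lay at 0.0873%, 0.124% and 0.144%. CCND3 in the library labelled day 0 lay below the ACTA1 share, so it is not read as above background there.

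Joint detection of CCND1 and CCND2 was near the share that independent detection would give. Among cells thinned to 3000 UMIs, both had a UMI in 96 of 1871 cells labelled day 0, 37 of 1433 labelled day 2 and 36 of 2576 labelled day 6. These are 5.13% (4.18 to 6.23), 2.58% (1.82 to 3.54) and 1.40% (0.981 to 1.93), and independent detection would give 4.52%, 2.67% and 1.29%, within each interval. Doublets were kept among these cells. CCND1 without CCND2 was found in 10.3%, 5.30% and 4.19% of these cells, and CCND2 without CCND1 in 24.3%, 31.3% and 21.7%. At least 1 D-type cyclin was detected in 41.6% (39.3 to 43.9), 42.3% (39.7 to 44.9) and 31.5% (29.7 to 33.4). Before thinning, those of these cells with CCND1 held on average 1.92, 1.41 and 1.27 of its UMIs, and at most 15, 6 and 4. These counts are not corrected for depth, which differed between the libraries.

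Of the E-type cyclins, which activate CDK2 at the entry into S phase, CCNE1 was the one measured above 10 CPM (chromosome 19, 29811898 to 29824308, plus strand). It was at 11.0 CPM (9.82 to 12.3) under the day 0 label, 24.0 CPM (21.9 to 26.2) under the day 2 label and 34.7 CPM (33.0 to 36.6) under the day 6 label. All 3 levels were apart beyond counting error, with the library labelled day 0 the lowest. The ratio was 2.18 (1.89 to 2.52) for labelled day 2 over day 0 and 1.45 (1.31 to 1.61) for day 6 over day 2. CCNE1 had no overlapping gene in the annotation. Among cells under 5% mitochondrial UMIs the first of these ratios was 1.94, which ends the 2-fold call. Its share of thinned cells was 1.35%, 2.69% and 3.78%, against 11.0%, 15.7% and 22.4% without thinning. The first of the thinned shares lies below that of ACTA1.

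CCNE2, the second E-type cyclin (chromosome 8, 94879770 to 94896678, minus strand), gave only 46, 49 and 67 UMIs. These stand for 1.62 CPM (1.19 to 2.16) under the day 0 label, 2.38 CPM (1.76 to 3.14) under the day 2 label and 1.62 CPM (1.26 to 2.06) under the day 6 label, and the intervals overlap. At this depth no difference between the libraries was detectable for CCNE2. The 3′ end of CCNE2 lies under INTS8 on the opposite strand. Together the E-type cyclins summed to 12.6, 26.4 and 36.4 CPM, with CCNE1 giving 87.2%, 91.0% and 95.5% of their UMIs.

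CDK6, a kinase partner of the D-type cyclins, had its highest level under the day 6 label (chromosome 7, 92604921 to 92836594, minus strand). It was at 34.3 CPM (32.2 to 36.5) under the day 0 label, 47.8 CPM (44.9 to 50.9) under the day 2 label and 82.4 CPM (79.6 to 85.2) under the day 6 label. The intervals did not overlap. The ratio was 1.39 (1.27 to 1.52) for labelled day 2 over day 0 and 1.72 (1.61 to 1.85) for day 6 over day 2. This second ratio passed 2-fold in 3 alternatives and reached 2.82 among cells under 5% mitochondrial UMIs. CDK6 was found in 2.93%, 3.10% and 6.70% of thinned cells and in 25.9%, 20.8% and 36.9% without thinning.

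CCNE1 and CDK6 are the measured members with more than 2-fold higher levels under the day 6 label than under the day 0 label. The stretches just before their annotated starts are therefore shown. They are from RefSeq (GRCh38.p14), 157 bases at chr19:29811741-29811897 on the plus strand and 229 bases at chr7:92836595-92836823 on the minus strand, each written 5′ to 3′. Capitals mark the GC box GGGCGG, a binding motif of SP factors, on either strand.
CCNE1: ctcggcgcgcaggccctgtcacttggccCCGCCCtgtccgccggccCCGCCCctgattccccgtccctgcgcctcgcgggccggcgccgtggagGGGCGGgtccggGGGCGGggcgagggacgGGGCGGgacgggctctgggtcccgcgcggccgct
CDK6: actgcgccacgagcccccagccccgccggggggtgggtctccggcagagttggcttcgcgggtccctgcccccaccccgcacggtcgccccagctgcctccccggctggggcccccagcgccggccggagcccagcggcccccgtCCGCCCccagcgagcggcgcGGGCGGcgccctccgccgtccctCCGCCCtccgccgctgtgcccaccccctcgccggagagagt

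The CCNE1 stretch has a GC content of 83.4% and holds 5 GC boxes, and the CDK6 stretch has 82.1% and holds 3. Of 35116 promoters in the same table, 27.1% hold at least 1 GC box in a stretch as long as that of CCNE1 and 0.749% hold as many as 5. For the length of CDK6, 39.8% hold at least 1 and 11.7% as many as 3. The E2F forms TTTGGCGC, TTTCCCGC, TTTGCCGC and TTTCGCGC were in neither stretch on either strand, and in 1.68% and 2.55% of promoter stretches of these lengths. Stretches of the other promoters were cut at the same distance from the RefSeq start, which leaves out the bases nearest that start. They were not placed to end at the GENCODE start, as those of CCNE1 and CDK6 were. The percentages are thus matched in length and RefSeq position only. A match describes the letters only.

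CDK4, the other partner of the D-type cyclins (chromosome 12, 57747727 to 57756013, minus strand), had 12, 13 and 40 UMIs. Its level was 0.423 CPM (0.219 to 0.740) under the day 0 label, 0.630 CPM (0.336 to 1.08) under the day 2 label and 0.969 CPM (0.692 to 1.32) under the day 6 label. Under the day 6 label CDK4 was 2.29-fold higher than under the day 0 label, with an interval of 1.18 to 4.79, and the intervals of the other pair of ratios held 1. CDK4 gave 1.22%, 1.30% and 1.16% of the UMIs of CDK4 and CDK6 in the 3 libraries. Its 3′ end lies under TSPAN31 on the opposite strand, a gene at 7.80, 5.58 and 7.97 CPM, and reads of the overlap cannot be told apart without the strand setting.

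CDK2, the kinase partner of cyclin E (chromosome 12, 55966769 to 55972784, plus strand), differed least of the 7 measured members between the libraries labelled day 0 and day 6. It was at 21.4 CPM (19.7 to 23.2) under the day 0 label, 17.2 CPM (15.4 to 19.0) under the day 2 label and 24.4 CPM (22.9 to 25.9) under the day 6 label. The library labelled day 2 was the lowest in CPM, with ratios of 0.803 (0.702 to 0.917) for labelled day 2 over day 0 and 1.42 (1.26 to 1.61) for day 6 over day 2. Labelled day 6 over day 0 gave 1.14 (1.03 to 1.26). Averaging CPM over cells turned the first of these to 1.04, and cells low in both cell cycle lists described below, with limits set per library, turned the last to 0.998. With no mitochondrial limit the first was 0.675. CDK2 lies wholly within the span of PMEL, a gene on the opposite strand at 142, 80.0 and 70.7 CPM. Reads of these genes cannot be told apart without the strand setting, so the levels and ratios of CDK2 carry this limit.

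Of the inhibitors, CDKN1B was highest in the library labelled day 0 (chromosome 12, 12715058 to 12722371, plus strand). It was at 34.3 CPM (32.2 to 36.5) there, 20.9 CPM (19.0 to 23.0) under the day 2 label and 23.6 CPM (22.1 to 25.1) under the day 6 label. The latter pair overlap in their intervals, and the ratio of labelled day 6 over day 2 was 1.13 (1.01 to 1.27). CDKN1B was 1.64-fold lower (1.46 to 1.84) under the day 2 label than under the day 0 label, and 1.45-fold lower (1.33 to 1.59) in that labelled day 6. Among cells under 5% mitochondrial UMIs the ratio of labelled day 2 over day 0 was 0.493, past 2-fold.

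CDKN2C, the p18 inhibitor of CDK4 and CDK6 (chromosome 1, 50960745 to 50974633, plus strand), had 14, 3 and 14 UMIs, or 0.494, 0.145 and 0.339 CPM. The ratio of labelled day 2 over day 0 was 0.294 with an interval of 0.0543 to 1.05, so no difference was detectable. After thinning, CCNE2, CDK4 and CDKN2C were each found in at most 0.165% of the cells of any library, and CDK4 and CDKN2C in none of the 2419 cells labelled day 2. Without thinning CDK4 was found in 12 and CDKN2C in 3 of those cells. All the thinned shares were below that of ACTA1, the highest of the 11 background genes, at 1.57%, 0.744% and 1.32% after the same thinning, and no order is read from them.

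The members were also described within each library by cell cycle state. Cells with at least 3000 UMIs were thinned to that depth and classed by a list of G2/M genes and then a list of S phase genes, neither of which holds a member. Cells with at least 30, 26 and 21 UMIs of the G2/M list under the labels day 0, day 2 and day 6 formed a class, and of the rest those with at least 13, 12 and 13 UMIs of the S list formed another. These limits were set within each library and do not compare libraries. This gave 920, 659 and 1222 cells low in both lists, 469, 407 and 676 high in the S list and 482, 367 and 678 high in the G2/M list. Within 1 UMI of the G2/M limit lay 49, 66 and 161 cells, and within 1 UMI of the S limit 156, 151 and 220. The classes are ranges of a score, and cells of 1 library share their source. CCNB1, a mitotic cyclin in neither list, was 4.38, 2.34 and 2.82 times as high in the G2/M class as in cells low in both.

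CCNE1 was higher in the S class in every library. It was at 22.4 CPM in cells high in the S list and 8.26 CPM in cells low in both in the library labelled day 0, a ratio of 2.71 (2.11 to 3.50). The ratio was 1.68 (1.36 to 2.07) under the day 2 label and 1.99 (1.76 to 2.24) under the day 6 label. Of all measured genes, 99.8%, 99.5% and 99.7% had smaller ratios. In the G2/M class CCNE1 was at 0.650, 0.760 and 0.785 times the level of cells low in both.

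CDK2 was likewise higher in the S class, with ratios of 1.78 (1.48 to 2.15), 1.38 (1.05 to 1.79) and 1.79 (1.53 to 2.09) over cells low in both. In the G2/M class its ratios were 0.917, 1.18 and 1.38, and the first pair of their intervals held 1. CDKN1B was higher in the G2/M class, with ratios of 1.59 (1.37 to 1.84), 1.70 and 1.38. Of measured genes 97.3%, 98.3% and 95.7% had smaller ratios. In the S class the ratios of CDKN1B were 1.04, 1.31 and 1.07, of which that under the day 2 label (1.02 to 1.69) excludes 1. With other limits or depths for the classes, these directions of CCNE1 and CDK2 in the S class and of CDKN1B in the G2/M class were kept in all 3 libraries.

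For CCND1 and CDK6 the ratios between the classes were nearer to 1 than those between the libraries labelled day 6 and day 0. The part of cell cycle state in the differences between libraries was not tested. CCND1 in the S class was at 1.01, 1.11 and 1.37 times the level of cells low in both, and in the G2/M class at 0.872, 1.19 and 0.872 times. Of these, the S class ratio under the day 6 label (1.14 to 1.64) and the G2/M ratio under the day 0 label (0.771 to 0.985) exclude 1. With classes from cells thinned to 1000 UMIs the latter interval was 0.818 to 1.04. For CCND2 the S class ratios were 0.986 (0.908 to 1.07), 1.19 (1.08 to 1.30) and 1.16 (1.07 to 1.26). Its G2/M class ratios were 0.849 (0.780 to 0.924), 1.23 (1.11 to 1.35) and 0.869 (0.794 to 0.950). All of these intervals but the first exclude 1. CDK6 in the S class was at 1.08, 1.03 and 1.03 times and CCND3 at 1.02, 0.867 and 0.937 times, with all 6 intervals holding 1. With classes from cells thinned to 1000 UMIs, CDK6 in the S class under the day 6 label was instead at 0.911 times (0.836 to 0.992). In the G2/M class CDK6 was at 0.921, 1.06 and 1.15 times, of which the last (1.06 to 1.25) excludes 1, and CCND3 at 0.840, 0.870 and 0.999 times.

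**Figure D4:**
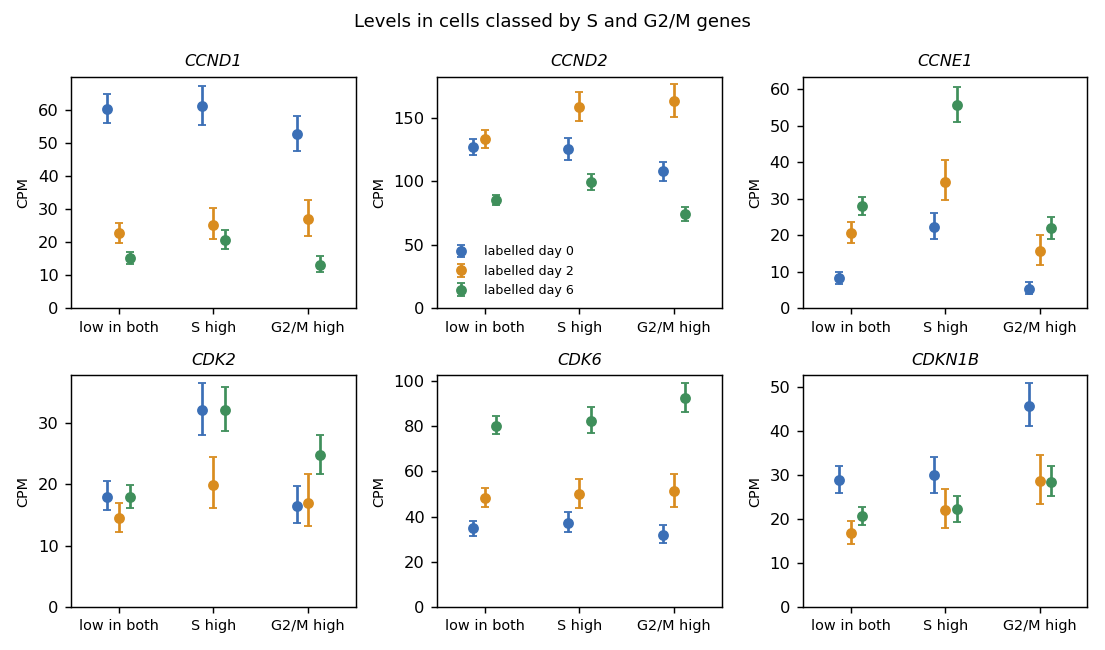
Level in CPM of 6 members in cells low in both cell cycle lists, high in the S list or high in the G2/M list of each library, with exact Poisson 95% intervals. CCNE1 is highest in the S class of all 3 libraries (22.4, 34.7 and 55.6 CPM), and CDKN1B is highest in the G2/M class of all 3.

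The share of mitochondrial UMIs, a sign of cell quality, moved with several members inside each library. CDK2 was at 37.2, 27.6 and 38.1 CPM in cells under 5% mitochondrial UMIs and at 20.3, 13.7 and 22.1 CPM in cells from 5 to 25%. CDKN1B was at 55.2, 27.2 and 36.2 CPM against 32.9, 18.9 and 21.5 CPM, and CCNE1 at 16.4, 31.8 and 49.0 CPM against 10.6, 21.4 and 32.4 CPM. CCND2 was at 165, 187 and 113 CPM against 119, 135 and 84.3 CPM. For CDK2, CDKN1B and CCND2 the intervals were apart in every library, and for CCNE1 they overlapped under the day 0 label. CCND1 was nearly level under the day 0 label, at 59.0 CPM (48.4 to 71.3) under 5% and 58.5 CPM from 5 to 25%. Its intervals were apart only under the day 6 label, and those of CCND3 overlapped in every library. Median depth was 2768, 3170 and 2479.5 UMIs under 5% and 11763, 5904 and 8794.5 UMIs from 5 to 25%. CPM totals include mitochondrial UMIs, and the share of all genes that were higher under 5% was not computed. CDK6 went the other way in the libraries labelled day 0 and day 2, at 22.4 and 27.8 CPM under 5% and 35.1 and 54.5 CPM above it, and was at 78.2 and 83.1 CPM under the day 6 label. CCNE2 had 0 UMIs in 463 cells under 5% in the library labelled day 0, where 3 UMIs would stand for 1.64 CPM, and 2 UMIs in 1185 such cells labelled day 2. Kept cells under 5% made up 20.2%, 49.0% and 39.4% of the libraries. Their part in the differences between libraries was not tested, and values under other mitochondrial limits stand with each of the 7.

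**Figure D5:**
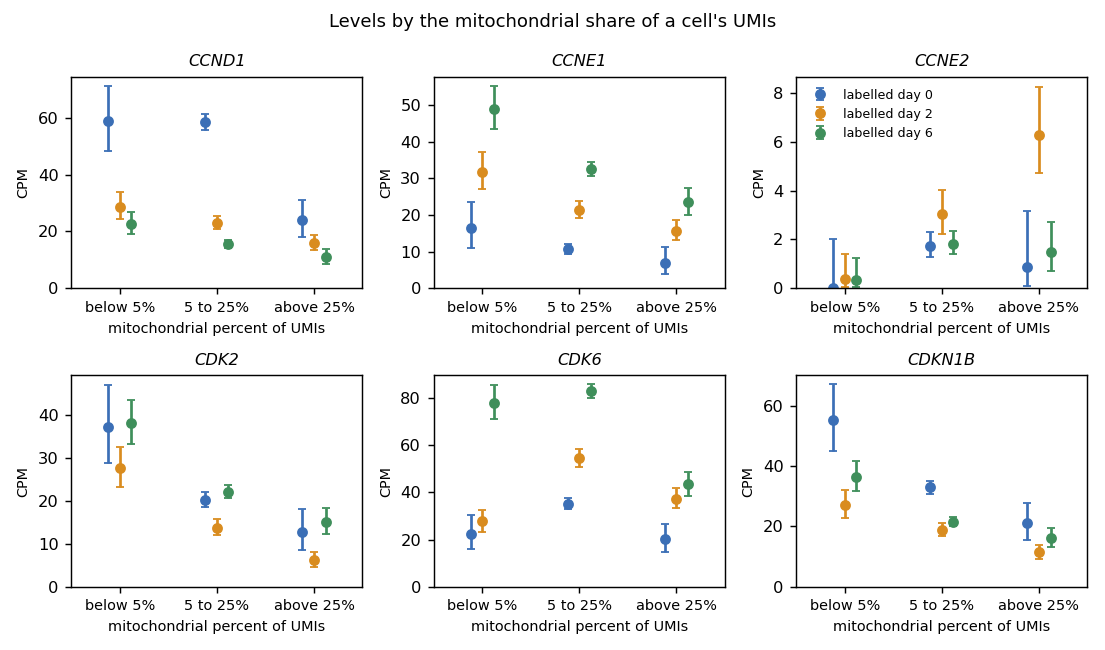
Level in CPM of 6 members in cells with under 5%, 5 to 25% or over 25% mitochondrial UMIs in each library, with exact Poisson 95% intervals; cells over 25% were not among the kept cells. CDK2 and CDKN1B are lower in each class to the right in all 3 libraries, and CCND1 is highest in the library labelled day 0 in each class.

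The library labelled day 6 held cells with and without a POU5F1 UMI, and CCND2 was the measured member whose intervals did not overlap between them. Among its cells thinned to 3000 UMIs, POU5F1 was detected in 1398 and not in 1178. CCND2 was at 78.0 CPM (74.1 to 82.0) in the first and 94.4 CPM (90.1 to 98.9) in the second, whereas PAX6 was at 19.1 and 37.2 CPM. CDK6 was at 86.9 and 80.6 CPM, CCNE1 at 32.7 and 34.3 CPM and CCND1 at 15.8 and 16.5 CPM. For these 3 and for CCND3, CDK2 and CDKN1B the intervals of both classes overlapped. Ratio intervals between the classes were not computed, and overlap of the level intervals does not show that levels were equal. Median depth was 8433 UMIs in the first class and 11065 in the second.

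Other genes of the pathway were counted from lists. Of 13 RB and E2F genes 11 were measured, and E2F5 alone passed 2-fold in any comparison, 2.84-fold lower under the day 2 label than under the day 0 label. The list's median log2 ratios were -0.35 for labelled day 2 over day 0, 0.39 between labelled day 6 and day 2 and 0.03 between labelled day 6 and day 0. Over all 10574 measured genes they were 0.01, 0.12 and 0.12, and medians of the lists that follow are log2 ratios in this order. Of all measured genes 20.2%, 14.6% and 16.8% were 2-fold apart in the same order, which is the background for the counts of each list here. RB1, which encodes RB itself, was at 39.4, 21.0 and 27.5 CPM.

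Of the other CDK inhibitors, 2 of 5 were measured. CDKN1A (p21), a target of p53, was at 62.3 CPM under the day 0 label, 4.95 CPM under the day 2 label and 4.63 CPM under the day 6 label. CDKN1C (p57), from the same family as CDKN1B, was at 141, 43.1 and 99.8 CPM. Both were thus highest in the library labelled day 0, as CDKN1B was. CDKN1C was 2.31-fold higher under the day 6 label than under the day 2 label. The INK4 family members CDKN2A, CDKN2B and CDKN2D stayed below 10 CPM.

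Of 6 S and mitotic cyclins with CDK1, 5 were measured, and CCNB1 and CDK1 each passed 2-fold in 1 comparison. CCNB1 was 2.04-fold lower under the day 6 label (74.5 CPM) than under the day 2 label (152 CPM), and CDK1 was 2.04-fold lower under the day 6 label (87.5 CPM) than under the day 0 label (179 CPM). The median log2 ratios of this list were 0.26 for labelled day 2 over day 0, -0.71 between labelled day 6 and day 2 and -0.23 between labelled day 6 and day 0. All 14 origin licensing and firing genes were measured, with medians of 0.40, 0.18 and 0.45 in the same order. CDC6, which loads the replicative helicase, was at 38.6, 51.9 and 114 CPM, and MCM5, a helicase subunit, at 51.1, 94.98 and 138 CPM. Like CCNE1, both were more than 2-fold higher under the day 6 label than under the day 0 label. CDC7, a kinase that fires origins, was 2.05-fold lower under the day 2 label than under the day 0 label.

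Upstream of the D-type cyclins and p27, all 18 listed regulators were measured, with medians of 0.13, 0.29 and 0.43. In labelled day 2 over day 0, 4 were at least 2-fold higher (MYC, MYCN, TCF7L1 and FOXO1) and 2 lower (LEF1 and GLI3), against 10.1% and 10% of all measured genes. MYC, which drives cell growth genes, was at 7.48, 39.0 and 7.73 CPM and its relative MYCN at 21.7, 105 and 72.7 CPM. FOXO1, a factor that AKT keeps out of the nucleus and that can raise CDKN1B, was at 22.2, 172 and 52.2 CPM. GLI3, a hedgehog pathway factor, was at 297, 48.5 and 120 CPM, and LEF1, a WNT pathway factor, at 13.1, 2.96 and 11.4 CPM. GLI3 and LEF1 were thus lowest in the library labelled day 2, where MYC, MYCN and FOXO1 were highest. In labelled day 6 over day 2, LEF1 and GLI3 were at least 2-fold higher and MYC and FOXO1 lower, and in labelled day 6 over day 0, MYCN and FOXO1 were higher and GLI3 lower.

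None of 7 measured genes of the CDK activating kinase and CDC25 group passed 2-fold in any comparison, with medians of 0.16, -0.37 and 0.15. The list of ubiquitin ligases of G1 regulators and their partners had 12 measured genes, with medians of -0.16, -0.02 and -0.16. Its 1 gene past 2-fold was CKS2, which is no ligase but a small CDK-binding subunit and also stands in the G2/M list, 2.05-fold lower under the day 6 label than under the day 2 label. Of 14 other cyclins and CDK-like kinases measured, CCNG2, CCNI and CDK14 were lower under the day 2 label than under the day 0 label. CCNG2, an atypical cyclin linked to cell cycle arrest, was at 166, 22.6 and 123 CPM, and CDK14 at 126, 54.4 and 55.4 CPM. The medians of this list were -0.09, 0.04 and -0.15.

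The genes with the most similar levels across the 3 libraries were sought among the 4328 genes that reached 50 CPM in any library and had UMIs in all, by the Euclidean distance of log2 CPM centred on each gene's mean. For CCND1 these were LRRC58 (distance 0.03), PRKAA2 (0.10) and the mitochondrial gene MT-ATP8 (0.13). TTC7B, AURKB and CD46 lay closest to CCND2, all within 0.04, and ERICH1, NOLC1 and ETF1 closest to CCND3, all within 0.02. AURKB, a mitotic kinase, was at 154, 186 and 109 CPM. With 3 libraries such likeness describes the order and spacing of 3 values only.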

How the data were processed

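Single H9 cells were profiled in 3 libraries. For each, the authors deposited counts as a sparse matrix of genes by barcodes, with 2 lists that name them. The counts were taken as UMI counts because inDrop uses UMIs, per the labels' protocols; collapsing of duplicate reads is not stated. STAR and hg38 are named in the submitters' processing notes. For the annotation, strand setting and barcode filter the sources used here give nothing. Each deposited barcode held 100 genes or more.

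Cells with at least 1000 UMIs, 500 genes and at most 25% mitochondrial UMIs were kept. UMIs were summed over kept cells and scaled to CPM. A ratio of CPM has an exact conditional binomial interval, a level an exact Poisson interval and a share a Clopper-Pearson interval, all at 95%. A gene counted as measured when it reached 10 CPM in any library, and as 2-fold apart at a ratio of at least 2 or at most 0.5. No test between libraries was possible. Thinning drew UMIs without replacement with a fixed seed.

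Named were all 10 members, list genes past 2-fold (the 2 to 4 farthest) and the 3 nearest genes of each D-type cyclin. RB1, AURKB, TCF7L1, PAX6, FEZF1, NANOG and the INK4 genes were named after their values were seen. The members and lists were chosen with earlier results of these data known. Doublets were kept: scrublet called 5, 0 and 1 cells, a share at which such a caller has not worked. Clusters used by 1 alternative came from scanpy 1.11.5. Other scalings included TMM factors from edgeR 4.0.16. To check the calculation only, counts were drawn from Poisson distributions for 10574 genes. Of the intervals, 95.2% held the true ratio for labelled day 2 over day 0. The share was 95.4% between labelled day 6 and day 2 and 94.9% between labelled day 6 and day 0. These draws share the assumption of the intervals and hold no further spread between cells or libraries, so they do not test the intervals on these data. Positions and overlaps came from GENCODE 29 (GRCh38), matched by symbol, and upstream sequences from RefSeq (GRCh38.p14), which was used for 2 members.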

Additional observations from a re-analysis of the deposited data

How the results depend on the processing

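The count of 2-fold members was recomputed with 4 other scalings, other limits on UMIs, mitochondrial share, doublet scores, clusters and cell cycle class, and 2 other CPM minimums. Leaving out shared barcodes and keeping only cells under 5% mitochondrial UMIs were added after seeing the data. For labelled day 2 over day 0 the count of 2 became 1 (CCND1) with a minimum of 50 CPM and 3 with no minimum, which adds CDKN2C. Under 5% mitochondrial UMIs it stayed at 2, but with CDKN1B in place of CCNE1. For labelled day 6 over day 2 the count of 0 became 1 (CDK6) with CPM averaged over cells, at most 10% mitochondrial UMIs or only cells under 5%, and 1 (CDKN2C) with no minimum. For labelled day 6 over day 0 CCND1, CCNE1 and CDK6 were 2-fold apart under every scaling and every choice of cells; the count was 2 with a minimum of 50 CPM, which CCNE1 does not reach, and 4 with no minimum, which adds CDK4.

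CCND1, CCND2, CCND3, CCNE1, CDK6 and CDKN1B kept their direction in all 14 scaling and cell alternatives of each comparison. With no mitochondrial limit the median log2 ratio of all genes in labelled day 2 over day 0 moved by -0.12. Counts of at most 67 UMIs per library limit CCNE2, CDK4 and CDKN2C. Thinning changed the levels of the shares, as printed. No paired analysis was possible because each label has 1 library and the letters A and B name no shared source.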
